A study of Bos taurus with 8 samples.

Results

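The ABC (ATP-binding cassette) family was read from 47 of the 43795 probes of a bovine oligonucleotide array, standing for 36 of its 15229 gene symbols. A probe was a member when its symbol in the platform annotation was ABC, a subfamily letter from A to G and a number. All 36 symbols are current in the ARS-UCD2.0 bovine annotation, which has 46 ABC symbols. The other 10, among them ABCB4, had no member probe, so nothing is shown for them. Subfamily A had 15 probes for 11 genes, B 7 for 7, C 8 for 7, D 9 for 3, E 1 for 1, F 2 for 2 and G 5 for 5. Of the 6 genes with several probes, ABCD4 had the most.

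ABC transporters use ATP, bound by a conserved pair of nucleotide-binding domains, to move substrates across a membrane. Subfamily A moves lipids, B and C hold drug, peptide, bile salt and conjugate pumps, D serves peroxisomes and lysosomes, and G moves sterols and drugs. Proteins of subfamilies E and F have the nucleotide-binding domains but no membrane part, and act on ribosomes and translation. In the embryo and the placenta, ABCB1 and ABCG2 are known as efflux pumps of the outer epithelium.

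Each of 8 two-colour arrays carried RNA of bovine expanded blastocysts of both kinds, one labelled with Cy3 and the other with Cy5. In vivo embryos were flushed from the uterus of superovulated Holstein donors, labelled as collected on day 7 after insemination, with 7.5 days in the treatment text. Follicles over 8 mm were first removed. The donors then received 400 mg of FSH in 8 injections falling from 60 to 20 mg and 500 ug doses of a prostaglandin analogue, and were inseminated at 12 and 24 h after oestrus. In vitro embryos came from oocytes aspirated from follicles of 2 to 6 mm, were matured, fertilized and cultured (the title gives SOF, without spelling it out), and were collected at 168 h after fertilization. Both kinds shared 1 pool of semen. The labels describe the in vitro source both as ovum pick-up and as slaughterhouse ovaries, and give no number of embryos per replicate. Hormone treatment, oocyte source and culture differ wholly between the kinds and cannot be told apart. The 4 numbered replicates were each hybridised in both dye orientations, on slide 58 (in vitro in Cy5) and slide 61 (in vivo in Cy5). The design calls them biological replicates, without saying which donors or cultures each came from, so p-values measure the spread between these samples.

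A probe was called above the limit on an array where its signal exceeded that of 95% of the negative control spots of its channel, and was tested where it did so on all 8 arrays for in vitro RNA, for in vivo RNA or for both. In the whole series 24775 probes were tested, and 60.4 to 83.0% of probes per array and channel were above that limit. The ratios of replicate 2 correlated across probes at 0.39 to 0.46 with the other replicates, which correlated at 0.80 to 0.82 with each other. Results below are therefore also given without replicate 2 where that changes a call. Levels are log2 spot intensities after normalization, as mean ± SD over 4 replicates, each the mean of its 2 arrays. They are compared within a probe only. Ratios are log2 of the in vitro over the in vivo signal, given as the mean of 4 replicates with limma's SE, and p-values are adjusted over all tested probes. Since RNA came from whole embryos, fewer cells of a type and less RNA per cell cannot be told apart.

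Of the 47 ABC probes 28 were tested, for 23 genes, and 23 of them were above the limit on all 8 arrays in both kinds. The other 5 passed through 1 kind only, and none of these was called. At an adjusted p under 0.05, 7 of the 28 were called, where 15.8% of all tested probes were. Of these, 6 probes (21.4% of 28) were higher in vitro, where 7.01% of all tested probes were, and 1 (3.57%) was lower, where 8.8% of all tested probes were. The higher probes belong to ABCB1, ABCG2, ABCE1, ABCD3 (2 probes) and ABCC5, and the lower probe to ABCF2. The median ratio of the 28 probes was 0.02, beside -0.00316 for all tested probes. With 1 probe a gene, the brightest, 4 of 23 genes were higher and 1 lower, against 8.1% and 11.1% of all genes tested. These counts use p-values adjusted over probes. Adjusted over genes, 4 of 23 were higher and 3 lower, where 940 and 1285 of all 10188 genes tested were. The levels of the 2 kinds did not overlap over the 4 replicates for 8 of the 28 probes, and 19.2% of all tested probes had no overlap.

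**Figure D1:**
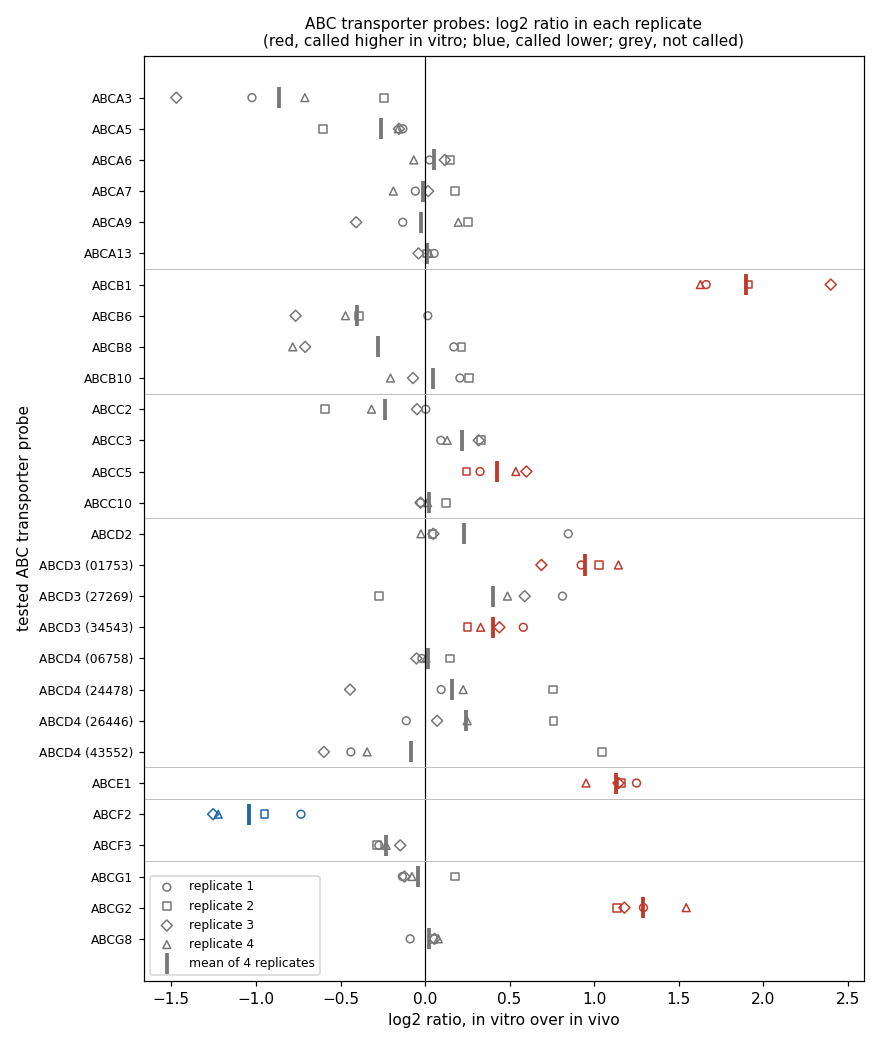
Log2 ratio, in vitro over in vivo, of the 28 tested ABC probes in each of 4 replicates (symbols, each the mean of 2 arrays) and their mean (bars), grouped by subfamily; brackets give the end of the probe ID where a gene has several probes. All 4 replicates of ABCB1 lie between 1.63 and 2.40 and those of ABCF2 between -1.25 and -0.73, while 10 of the 21 grey, uncalled probes have a mean within 0.1 of 0.

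**Figure D2:**
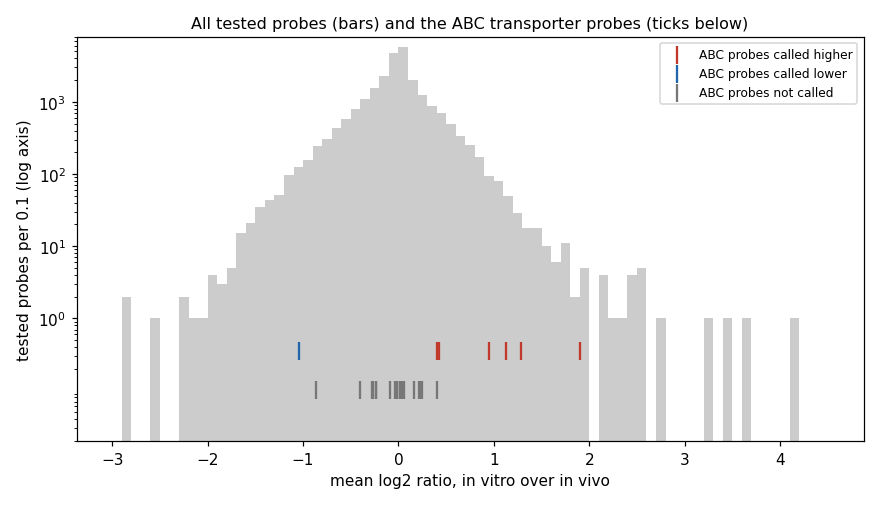
Number of tested probes per 0.1 of mean log2 ratio (grey bars, log axis) with the 28 ABC probes as ticks underneath. ABCB1, at 1.90, was the probe of rank 26 from the highest of 24775, and ABCF2, at -1.04, that of rank 340 from the lowest.

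Among the multidrug efflux pumps, ABCB1 and ABCG2 were both higher in vitro. ABCB1 (P-glycoprotein, an exporter of hydrophobic drugs and lipids) had in vitro levels of 11.54, 11.59, 11.66 and 11.09 in replicates 1 to 4, and in vivo levels of 9.88, 9.68, 9.26 and 9.47. The lowest in vitro level thus lay above the highest in vivo level. The means were 11.47 ± 0.26 and 9.57 ± 0.27 (SD, n = 4). The replicate ratios were 1.66, 1.91, 2.40 and 1.63, the highest being that of replicate 3. The mean ratio was 1.90 ± 0.15, or 3.73-fold, with a 95% interval of 1.52 to 2.28 (limma adjusted p = 0.00691). All 8 arrays gave a positive ratio, from 1.61 to 2.47.

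ABCG2 (breast cancer resistance protein, which also exports urate, porphyrins and, into milk, riboflavin and drugs) had in vitro levels of 9.21, 8.49, 8.86 and 9.14 and in vivo levels of 7.92, 7.35, 7.68 and 7.60. Here too the kinds did not overlap, although replicate 2 was lowest in both. The means were 8.92 ± 0.33 and 7.64 ± 0.23 (SD, n = 4). Its ratios were 1.29, 1.14, 1.18 and 1.54, with a mean of 1.29 ± 0.09, or 2.44-fold, and an interval of 1.06 to 1.51 (limma adjusted p = 0.00691). In vivo its raw spots read 180 to 399, and the background limit in that channel ran from 99.2 to 229 over the arrays.

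In the deposited table of processed ratios ABCB1 averaged 1.64, 1.89, 2.44 and 1.63 and ABCG2 1.24, 1.11, 1.30 and 1.56 in replicates 1 to 4. The deposited mean was within 0.0338 of the ratio computed here for each of the 28 probes. Under the same fit the deposited values called 6 probes higher and 1 lower, and these were the same 6 and 1.

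**Figure D3:**
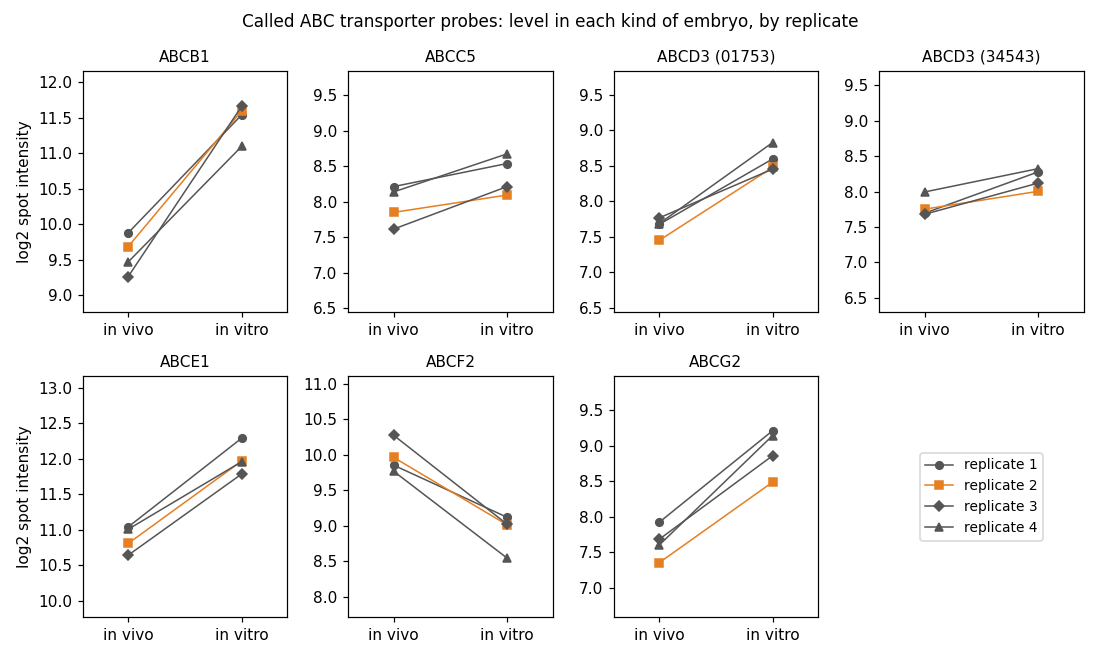
Log2 spot intensity of the 7 called probes in vivo and in vitro, a line for each of the 4 replicates, with replicate 2 in orange; each panel spans the same range of log2 units. In vitro and in vivo levels do not overlap for 6 of the 7 probes; for ABCC5 they do, although each replicate's own line rises.

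In subfamily C, which exports conjugates and organic anions, 1 of 4 tested probes was called. ABCC5 (an exporter of cyclic nucleotides) read 8.54, 8.10, 8.21 and 8.68 in vitro against 8.21, 7.85, 7.62 and 8.14 in vivo. The kinds overlapped, but every replicate was higher in vitro, with ratios of 0.32, 0.24, 0.60 and 0.54. The mean was 0.43 ± 0.08, or 1.34-fold (limma adjusted p = 0.0312). ABCC5 was no longer past the threshold without replicate 1 (adjusted p = 0.0990), 3 (0.119) or 4 (0.141), or with median centring within arrays in place of loess (0.35, adjusted p = 0.134).

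ABCC2, a pump of the apical membrane for glutathione and glucuronide conjugates, had ratios of 0.00, -0.59, -0.05 and -0.32, with a mean of -0.24 ± 0.12 (limma adjusted p = 0.266). ABCC3, its basolateral counterpart, had 0.09, 0.33, 0.32 and 0.13, with a mean of 0.22 ± 0.07 (limma adjusted p = 0.107). The tested ABCC10 probe gave 0.02 ± 0.06 and the other was above the limit on no array. Even the tested one was dim (6.95 in vitro and 6.93 in vivo), so its ratio does not show equal levels. The 95% intervals were -0.54 to 0.06 for ABCC2 and 0.04 to 0.40 for ABCC3, so neither probe was shown to be equal in the 2 kinds. The probe of ABCC1, another broad efflux pump, was above the limit on no array of either kind. ABCC8, the sulfonylurea receptor of potassium channels, was above it on 5 arrays in vitro and 4 in vivo, and ABCC11 on 4 and 4.

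The remaining tested members of subfamily B serve mitochondria and porphyrin handling, and none of the 3 was called. ABCB6, linked to porphyrin transport, had ratios of 0.02, -0.39, -0.77 and -0.47, with a mean of -0.40 ± 0.13 (limma adjusted p = 0.118). ABCB8, of the mitochondrial inner membrane, split by replicate, at 0.17 and 0.22 in replicates 1 and 2 and -0.71 and -0.78 in replicates 3 and 4. ABCB10, an inner membrane protein needed for heme synthesis, had a mean of 0.05 ± 0.10, with an interval of -0.21 to 0.30. The probe of ABCB11, the bile salt export pump, was above the limit on 0 arrays in vitro and 2 in vivo, that of ABCB5 on 0 and 1, and that of ABCB9, a lysosomal peptide transporter, on none.

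Subfamily D takes fatty acyl-CoA into peroxisomes, and ABCD4 takes part in releasing cobalamin from lysosomes. The 3 probes of ABCD3 (PMP70, an abundant peroxisomal membrane protein that imports long-chain acyl-CoA) all had a positive mean, and 2 of them were called. Probe EMBV3_01753 read 8.59, 8.48, 8.45 and 8.83 in vitro and 7.67, 7.45, 7.76 and 7.68 in vivo, with no overlap. Its ratio was 0.95 ± 0.09, or 1.93-fold (limma adjusted p = 0.00831). Probe EMBV3_34543 read 8.28, 8.00, 8.12 and 8.32 in vitro and 7.70, 7.75, 7.68 and 7.99 in vivo. Those groups did not overlap either, though replicate 2 in vitro lay just above replicate 4 in vivo. Its ratio was 0.40 ± 0.08, or 1.32-fold (limma adjusted p = 0.0288).

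The brightest ABCD3 probe, EMBV3_27269, had nearly the same mean, 0.40 ± 0.19, and was not called (limma adjusted p = 0.241). Its ratios were 0.81, -0.27, 0.59 and 0.49, so replicate 2 alone went down, and without replicate 2 it was called (0.63, adjusted p = 0.0107). Without replicate 1 neither ABCD3 call held (adjusted p = 0.0506 for EMBV3_01753 and 0.107 for EMBV3_34543). EMBV3_34543 was also not called without replicate 3 (0.123) or 4 (0.112), or with median centring (0.33, adjusted p = 0.139). All 3 probes had larger ratios on slide 58 (1.24, 0.65 and 0.69) than on slide 61 (0.66, 0.16 and 0.11), in the order EMBV3_01753, EMBV3_27269 and EMBV3_34543. The difference between orientations passed the threshold for each probe (limma adjusted p from 7.21e-05 to 0.000250). EMBV3_34543 was not called on slide 61 alone (adjusted p = 0.398).

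Of the 5 ABCD4 probes 4 were tested and none was called, and their means ran from -0.08 to 0.24. The brightest, EMBV3_43552, had ratios of -0.44, 1.04, -0.60 and -0.34, with replicate 2 opposite to the others. Its mean was -0.08 ± 0.30 with an interval of -0.85 to 0.68, and without replicate 2 it was called lower (-0.46, adjusted p = 0.0146). On slide 58 it averaged -1.89 and on slide 61 it averaged 1.73, so its sign changed with the slide. ABCD2, a peroxisomal transporter of very long-chain acyl-CoA, read 7.67 in vitro in replicate 1 and 6.83 to 6.87 in the other replicates, and 6.78 to 6.89 in vivo. Its mean ratio of 0.23 ± 0.17 rests on replicate 1 (limma adjusted p = 0.466).

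**Figure D4:**
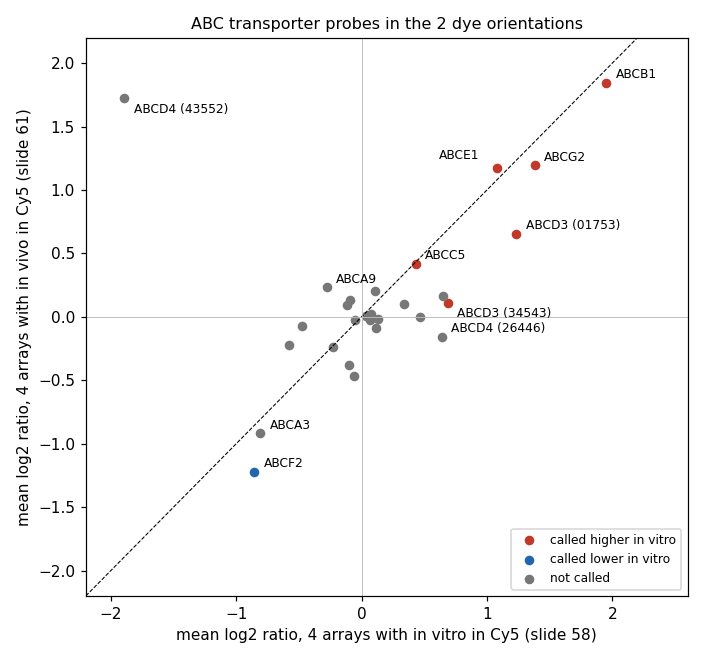
Mean log2 ratio of each tested ABC probe over the 4 arrays with in vitro in Cy5 (horizontal) and the 4 with in vivo in Cy5 (vertical); the dashed line marks equal values and colour marks the call. ABCB1 (1.95 and 1.85), ABCE1 (1.08 and 1.17) and ABCG2 (1.38 and 1.20) lie near the line, and ABCD4 probe EMBV3_43552 (-1.89 and 1.73) lies far off it.

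Ratios depended on dye orientation for many probes of the array: the difference between orientations passed an adjusted p of 0.05 for 17 of the 28 ABC probes and for 68.3% of all tested probes. Each slide held 1 orientation, so slide and dye cannot be told apart. For 9 of the 28 ABC probes the slide means had opposite signs, and the share over all tested probes is not given. All 7 called probes had the same sign on both slides. Calls were made on the mean of both slides, so that is no separate support. ABCF2 was -0.86 on slide 58 and -1.22 on slide 61 (limma adjusted p = 0.000585 for the difference), and ABCG2 differed by 0.18 (limma adjusted p = 0.0350). For ABCB1 and ABCE1 the difference did not pass (limma adjusted p = 0.0799 and 0.179). The sign was the same on all 8 arrays for 8 of the 28 probes, and for 18.8% of all tested probes.

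Lipid transporters of subfamily A showed no call among 6 tested probes. ABCA3, which loads phospholipids into the lamellar bodies of lung cells, had the largest uncalled ratio. It read 8.25, 9.17, 8.00 and 8.34 in vitro and 9.27, 9.41, 9.47 and 9.05 in vivo. Replicate 2 in vitro lay within the in vivo range, and the other in vitro levels lay under it. The ratios were -1.02, -0.24, -1.47 and -0.71, negative on all 8 arrays, with a mean of -0.86 ± 0.21 and an interval of -1.39 to -0.33 (limma adjusted p = 0.0527). It passed without replicate 2 (-1.07, adjusted p = 0.0149), and with 1 probe a gene adjusted over 10188 genes (adjusted p = 0.0435).

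ABCA5 gave -0.13, -0.60, -0.15 and -0.16, with a mean of -0.26 ± 0.10 (limma adjusted p = 0.167). ABCA9 gave -0.13, 0.25, -0.41 and 0.20, a spread on both sides of its mean of -0.02 ± 0.13. ABCA6, ABCA7 and ABCA13 had means from -0.01 to 0.06. Their tested probes were dim, with mean levels of 6.81 to 7.04, under the 25th percentile of tested probes (7.08 in each kind). These small ratios therefore do not show equal levels. ABCA1, which hands cholesterol and phospholipid to apolipoprotein A-I, was above the limit on 6 arrays in vitro and 4 in vivo and was not tested. Its ratios of -0.03, -0.01, -0.03 and 0.06 are those of a probe near background. The probes of ABCA2 and of ABCA12, a lipid transporter of the epidermis, were above the limit on no array. ABCA4, the retinoid transporter of photoreceptors, had 3 probes, none tested, and the probe of ABCA10 and the other probe of ABCA7 were not tested either.

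The sterol transporters of subfamily G were not called. ABCG1, which moves cholesterol to lipoprotein particles, gave -0.13, 0.18, -0.12 and -0.08, with a mean of -0.04 ± 0.08 and an interval of -0.23 to 0.16. ABCG8 gave 0.02 ± 0.06, with an interval of -0.13 to 0.17. That probe was dim, at 6.94 in vitro and 6.91 in vivo, and above the limit on 7 arrays in vitro. Its narrow interval therefore does not show equal levels. ABCG5, its partner in sterol secretion, was above the limit on 0 arrays in vitro and 4 in vivo, so it was not tested. Its 4 ratios were -0.36, -0.21, -0.21 and -0.10. ABCG4 was above it on 1 and 4. ABCG5 and ABCG4 were too dim to be tested, so nothing is shown for them either way.

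The members that are not membrane transporters moved in both directions. ABCE1 (a factor that splits ribosomes after termination) read 12.29, 11.97, 11.79 and 11.96 in vitro and 11.04, 10.81, 10.64 and 11.01 in vivo, with no overlap. Its ratios of 1.25, 1.16, 1.14 and 0.95 spread little, and the mean was 1.13 ± 0.07, or 2.18-fold (limma adjusted p = 0.00691). ABCF2, a soluble ATPase of the group related to yeast translation factors, read 9.12, 9.01, 9.02 and 8.55 in vitro and 9.85, 9.96, 10.27 and 9.77 in vivo. All in vitro levels lay under all in vivo levels. Its ratios were -0.73, -0.95, -1.25 and -1.22, with a mean of -1.04 ± 0.11, a 2.06-fold lower level in vitro (limma adjusted p = 0.00894). Without replicate 4 it was -0.98 and not called (adjusted p = 0.0543).

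ABCF3, related to the yeast protein Gcn20, read 7.58, 7.62, 7.61 and 7.53 in vitro and 7.85, 7.91, 7.75 and 7.76 in vivo. The groups did not overlap and all 8 arrays were negative, but the ratio was small at -0.23 ± 0.06 (limma adjusted p = 0.0529). It passed without replicate 2 (adjusted p = 0.0426) and with 1 probe a gene adjusted over genes (adjusted p = 0.0436).

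By subfamily, the median ratio of tested probes was -0.02 in A (6 probes), -0.11 in B (4), 0.12 in C (4), 0.24 in D (8), 1.13 in E (1), -0.64 in F (2) and 0.02 in G (3). The subfamily medians hide the called members of B and G, where ABCB1 and ABCG2 stood apart from the rest of their group: the other tested B probes ran from -0.40 to 0.05 and the other G probes from -0.04 to 0.02. The share of probes that could be tested differed by subfamily, from 40.0% in A to 88.9% in D. Every E and F probe on the array was tested, and 56.6% of all probes. Genes without a probe are not counted in these shares. Probes of 1 gene share their target, so the 8 tested D probes stand for 3 genes. The 19 untested probes had mean ratios from -0.22 to 0.06, and 6 of them were above the limit on no array.

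Family genes named outside the ABC pattern gave no call. CFTR, a chloride channel of this family, was above the limit on no array, and TAP1, which pairs with TAP2 to carry peptides for class I molecules, on 2 in vitro and 3 in vivo. TAP2 had a ratio of -0.19 ± 0.22 (limma adjusted p = 0.674). In the ARS-UCD2.0 annotation, the 2 nearest protein-coding genes on each side of the 6 called genes made 24 neighbours, of which 10 were tested. SMAD1, near ABCE1, was higher (0.53 ± 0.06, limma adjusted p = 0.00976) and SLC44A3, near ABCD3, was lower (-0.97 ± 0.13, limma adjusted p = 0.0125). RUNDC3B, near ABCB1, gave 0.01 ± 0.05. PPM1K, near ABCG2, gave 0.32 ± 0.09 (limma adjusted p = 0.0731). Of all genes tested 19.2% were called.

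Among transcription factors known to act on ABC genes, 18 of 34 listed genes were tested, 1 higher (5.56%) and 3 lower (16.7%), where 8.1% and 11.1% of all genes tested were. NFE2L2, which encodes the oxidative stress factor NRF2, was higher, with a ratio of 0.88 ± 0.11. YBX1, a factor that binds inverted CCAAT boxes such as that of human ABCB1, was lower (-1.12 ± 0.15), as were HNF4A, a factor of liver and endoderm (-1.02 ± 0.11), and PPARD, a fatty acid receptor gene (-0.62 ± 0.11). Their limma adjusted p-values ran from 0.00969 to 0.0268. The xenobiotic receptor genes NR1I2 and NR1I3 had no tested probe, while the aryl hydrocarbon receptor gene AHR gave 0.33 ± 0.17 (limma adjusted p = 0.279) and the oxysterol receptor gene NR1H3 -0.51 ± 0.19 (limma adjusted p = 0.141).

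Of 38 tested genes of xenobiotic metabolism 1 was higher (2.63%) and 4 were lower (10.53%), a lower share close to the 11.1% of all genes. The higher one was the aldehyde dehydrogenase gene ALDH1A1 (1.46 ± 0.20). Its probe was above the limit on all 8 arrays in vitro but on 3 in vivo. It was thus tested through the in vitro signal only, and the size of its ratio is uncertain. The 4 lower ones were the reductase genes AKR1B1 (-1.32 ± 0.15) and AKR1A1 (-0.73 ± 0.07) and the cytochromes CYP2S1 (-0.97 ± 0.12) and CYP3A28 (-0.57 ± 0.08). Of 18 uptake carriers 1 was higher (5.56%) and 4 were lower (22.2%), against 8.1% and 11.1% of all genes. The lower ones were the organic anion carrier gene SLCO2B1 (-1.21 ± 0.12) and the nucleoside carrier genes SLC29A1 (-1.17 ± 0.10), SLC29A2 (-0.72 ± 0.15) and SLC28A3 (-0.70 ± 0.12). The carnitine carrier gene SLC22A5 was the higher one (0.83 ± 0.14). The list medians were -0.08 and -0.12, beside -0.01 for all genes.

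Partners of the lipid and peroxisomal members were also counted. Of 14 genes of cholesterol efflux 28.6% were lower and 7.14% higher, against 11.1% and 8.1% of all genes. The 4 lower ones were NPC1 (-0.90 ± 0.16), LPCAT3 (-0.82 ± 0.17), MYLIP (-0.64 ± 0.10) and APOM (-0.52 ± 0.09), and the 1 higher was the sterol-esterifying SOAT1 (0.41 ± 0.08). LPCAT3 and MYLIP are known targets of the oxysterol receptors, as ABCA1 and ABCG1 are. ABCG1 was not called (-0.04 ± 0.08) and ABCA1 was too dim to be tested. The receptor genes NR1H2 (-0.35 ± 0.21) and NR1H3 (-0.51 ± 0.19) were tested and not called. Whether these receptors had a part in any of these ratios was not tested. Of 28 peroxisomal genes 3 were higher and 0 lower: FAR1, which makes fatty alcohols (1.24 ± 0.11), the import receptor anchor PEX26 (0.86 ± 0.07) and catalase, CAT (0.86 ± 0.06). That is 10.7% higher, beside 8.1% of all genes, of which 11.1% were lower.

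Of 39 genes of heme synthesis and iron-sulfur clusters 7 were higher (17.9%) and 3 lower (7.69%), where 8.1% and 11.1% of all genes were. The largest rises were those of the cluster assembly genes ISCA1 (1.03 ± 0.07), BOLA3 (0.88 ± 0.07), NFU1 (0.82 ± 0.08) and ISCA2 (0.78 ± 0.14). Of 26 genes of translation termination, recycling and initiation, the partners of ABCE1, 6 were higher (23.1%, against 8.1% of all genes) and 3 lower (11.5%, close to the 11.1% of all genes). The largest changes were EIF2S2 (1.16 ± 0.11), EIF3B (-1.03 ± 0.08), the release factor gene GSPT1 (-0.70 ± 0.07) and EIF5 (0.55 ± 0.06). The release factor gene ETF1 was higher (0.37 ± 0.06), opposite to GSPT1. GSPT2, in the same list, was not called (0.07 ± 0.06, limma adjusted p = 0.515). Class I peptide loading, the setting of TAP1 and TAP2, had 5 of 14 genes lower (35.7%, against 11.1% of all genes) and 0 higher (against 8.1%): PDIA3 (-1.27 ± 0.13), CALR (-1.17 ± 0.08), PSME2 (-1.06 ± 0.07), PSME1 (-0.84 ± 0.10) and NLRC5 (-0.46 ± 0.06). Among partners of the channel members 1 of 6 was lower (16.7%, against 11.1%), the scaffold gene PDZK1 (-0.72 ± 0.11), and 0 were higher.

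Markers of the blastocyst and of other cells were read the same way. KRT8, KRT18, TFAP2C, GATA3, IFNT, NANOG, SOX2 and POU5F1 were above the limit on all arrays. CDX2 was above it on 6 arrays in vitro and all 8 in vivo. Of 6 trophectoderm markers TFAP2C was higher at its brightest probe (0.67 ± 0.10). Its other probes gave 0.39 and 0.43 and were not called (limma adjusted p = 0.456 and 0.130). KRT18 was lower (-1.46 ± 0.27). KRT8 (-1.01), GATA3 (-0.40), CDX2 (-0.35) and IFNT (-0.35) also had negative ratios. They were not called (limma adjusted p from 0.0688 to 0.407). The list median was -0.38, and the summed level was 15.55 to 16.13 in vitro and 16.16 to 16.33 in vivo. Bright probes weigh most in this sum, and those of KRT8 and TFAP2C had ratios of opposite sign. It does not show a fall of these markers as a group. Of 3 inner cell mass markers 0 were higher and 1, NANOG, was lower (-1.77 ± 0.13). POU5F1 (-0.23 ± 0.09) and SOX2 (-0.10 ± 0.06) were not called (limma adjusted p = 0.184 and 0.308). The SOX2 probe was dim, at 6.88 in vitro and 6.98 in vivo, so its small ratio does not show equal levels. The summed level was 12.05 to 12.70 in vitro and 13.43 to 13.95 in vivo. That sum mostly follows NANOG, the brightest of the 3, and does not show a fall of these markers as a group. The part of cell make-up in the ABC ratios was not tested. None of 5 tested cumulus markers was called (summed level 9.92 to 10.07 in vitro, 9.997 to 10.13 in vivo). AMHR2 was above the limit on 0 arrays in vitro and 1 in vivo. That sum runs over 8 probes and holds the background of each, HAS2 for example reading 6.85 in both kinds. Such sums do not show that these cells were present, and are not comparable with the level of a single probe. None of 4 tested blood markers was called (9.57 to 10.13 and 9.77 to 10.12). The 4 oviduct and uterus markers with probes were all too dim to be tested (8.65 to 8.68 and 8.63 to 8.71), MUC16 being above the limit on no array.

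**Figure D5:**
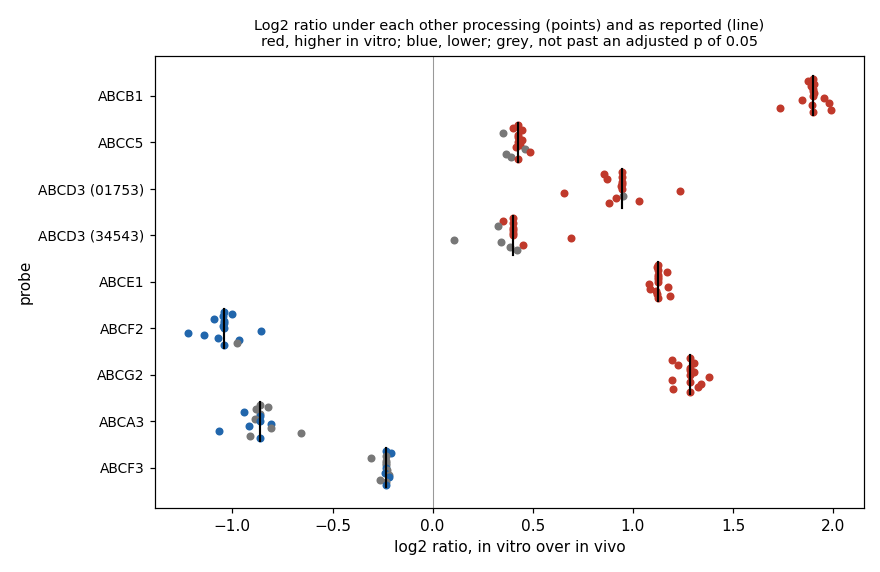
Log2 ratio of the 7 called ABC probes and of ABCA3 and ABCF3 under each other way of processing the same arrays (points, coloured by call) and as reported (black lines). All points of ABCB1 (1.73 to 1.99), ABCG2 (1.20 to 1.38) and ABCE1 (1.08 to 1.18) are called higher, and those of ABCC5, ABCD3, ABCF2, ABCA3 and ABCF3 are called in some settings and not in others.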

How the data were processed

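Raw spot intensity (mean) and local background intensity (median) in Cy3 and Cy5, not background corrected, were deposited by the authors for each array, per the file headers. Per the labels' protocols, RNA was extracted with PicoPure, amplified with RiboAmp and labelled by ULS. The deposited log2 ratios correlated with log2 of Cy5 over Cy3 at 0.951 to 0.975 on slide 58 and -0.993 to -0.985 on slide 61, so every column reads in vitro over in vivo; column medians were -0.00385 to 0.00131, and how the authors normalized them is not stated.

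Intensities were corrected with normexp (offset 50) and loess, with the 1425 control spots at weight 0, in limma 3.58.1 (R 4.3.3). A probe was tested when above the 95th percentile of 153 negative spots on all 8 arrays of a kind. The 2 arrays of a replicate deviated together (r = 0.703 to 0.894) and were averaged. The test was lmFit with eBayes on 4 replicates (prior df 2.01), two-sided, Benjamini-Hochberg adjusted. On simulated ratios of 24775 probes with the observed spread, 200 probes were changed. Of these, 68% at size 1 and 94% at size 2 (log2) were recovered, with 7 false calls at either size. In the data 15.8% of tested probes were called, a larger share than was changed in the simulation, so recovery may differ. Recovery at smaller sizes, such as the 0.43 of ABCC5, is not given. Channel levels used Aquantile scaling. Symbols are those of the platform annotation (21790 probes have 1). The number of arrays limits the precision.

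Members, gene lists and tests were chosen with earlier results of these data known. Named are all called members, the brightest uncalled probe of each subfamily and the 3 largest uncalled ratios. Of each list up to 4 called genes are named, or all where 5 or fewer. Other members are named to account for them. ETF1, GSPT2, AHR, NR1H3 and the neighbours were chosen after their values were seen. Plots were made in Python 3.11.15 (matplotlib 3.10.9). Alternatives were other background corrections, normalizations and filters, the deposited ratios, a replicate block, each slide alone, leaving out each replicate and adjustment over genes.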

Additional observations from a re-analysis of the deposited data

Results flagged for a closer look

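Uncalled ABC probes with 1 replicate far from the other 3 were ABCA5 (replicate 2 at -0.60), ABCD2 (replicate 1 at 0.85) and ABCD4 probe EMBV3_43552 (replicate 2 at 1.04). Chance flags about 1 in 20 such groups, and 28 were examined. None of the called probes was in this case, but a call already favours replicates that lie close together.

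The ratio differed between the dye orientations, with opposite signs of the slide means, for 7 uncalled ABC probes. The difference, in vitro in Cy5 minus in vivo in Cy5, was -3.62 for ABCD4 probe EMBV3_43552, 0.80 for ABCD4 probe EMBV3_26446 and -0.22 for ABCD4 probe EMBV3_06758. It was -0.51 for ABCA9, 0.15 for ABCA6, -0.20 for ABCA7 and 0.20 for ABCA13. Limma's adjusted p for these differences ran from 1.2e-06 to 0.0457, and 68.3% of all tested probes passed the same test.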

How the results depend on the processing

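ABCB1, ABCG2 and ABCE1 kept their direction and call in every alternative, ABCB1 between 1.73 and 1.99 and ABCG2 between 1.20 and 1.38. Without replicate 1, 3 or 4 all 3 were only just under the threshold (limma adjusted p = 0.0465, 0.0448 and 0.0491). No called ABC probe changed sign. The 6 higher calls became 4 with median centring and 9 on slide 58 alone, and ranged from 3 to 7 when 1 replicate was left out, 3 being without replicate 1. The 1 lower call became 2 with no background correction, median centring, no filter on dim probes or the filter on both kinds, 3 on slide 61 alone or when adjusted over genes, and 4 on slide 58 alone. It ranged from 0 to 4 when 1 replicate was left out, 0 being without replicate 4 and 4 without replicate 2. In a fit over the 8 single arrays with a replicate block and a dye term, ABCB1 stayed at 1.90 and ABCG2 at 1.29; 6 probes were higher and 4 lower, adding ABCA3, ABCB6 and ABCF3. That fit counts arrays, 8 for 4 replicates, so its p-values are too small. Over all tested probes, 1736 higher and 2181 lower became 2678 and 3185 in the block, and 3300 and 3890 without replicate 2. Leaving out replicate 1, 3 or 4 gave 282, 385 or 211 higher and 404, 490 or 276 lower. They became 3064 and 3855 on slide 58 alone and 3195 and 3157 on slide 61 alone. The causes were not tested. Signal over background limits the 19 untested probes, for which nothing is shown either way.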
